A study of Mus musculus with 2 samples.

Results

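The genes described here encode the actin cytoskeleton and the structures that tie it to adhesion sites. They are 45 genes listed by symbol for their roles, and the list was chosen with earlier results of these data known. All 45 were measured on both arrays, among 12344 genes with a current symbol that were. The samples were cultures of mouse macrophages, differentiated from bone marrow cells, of 2 genotypes: c-Maf+/-, with 1 working copy of the transcription factor gene Maf, and c-Maf-/-, with none. Both cultures had 5 days of M-CSF, the factor that drives macrophage differentiation, and then 5 h of 100 ng/ml lipopolysaccharide (LPS), a bacterial product that activates Toll-like receptor 4. Untreated cells were not analysed here. The labels give neither strain, age, sex nor number of mice, and do not say which part of Maf is missing or whether it is missing in all cells. Each genotype had 1 one-colour array and no replicate, so no test of the genotypes was possible, no p-value is given, and every difference is between these 2 arrays.

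Actin monomers assemble into filaments that push the cell edge forward, form phagocytic cups and pull on adhesions. The Arp2/3 complex starts new filaments as branches on old ones when WASP or WAVE proteins switch it on on the signal of the GTPases Rac1 and Cdc42. Tropomyosins, calponins, myosins and bundling proteins decide how stable and contractile the filaments are, and talin, vinculin, paxillin and zyxin link them to integrins in focal contacts and in podosomes, the adhesion rings of macrophages. After LPS macrophages spread and rebuild these structures.

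Signals below are background-subtracted spot intensities in arbitrary units. A log2 difference is c-Maf-/- minus c-Maf+/-, after each array's log2 signals were set against that array's 75th percentile, so 1 is 2-fold and 0.58 is 1.5-fold. A gene's value is the mean over its probes well above background on both arrays, and a signal can be compared between arrays for 1 gene but not between genes. The 45 genes had 79 probes, 76 of them measured, each on a single spot. Among 215 other probes with at least 8 spots, the log2 difference had a median SD of 0.07 between spots, and over 3443 genes with at least 2 probes the median SD between probes was 0.09. The error that the scanner software gives for each spot had a median of 0.20 for a member's log2 difference. It was 0.20 for every member probe with a signal of at least 1000 on both arrays, so it does not rank bright probes by precision. Neither error includes the spread between cultures or animals.

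Most of the actin genes were nearly level between the genotypes, and a few were not. Cnn3, which encodes calponin 3, was the only member to be lower by 2-fold or more in c-Maf-/- macrophages and Abi3, which encodes a subunit of the WAVE complex, the only one at least 2-fold higher. Of all genes measured, 1.73% were at least 2-fold lower and 1.42% at least 2-fold higher, so 1 in 45 each way is close to the array's own share. Since the members were chosen with earlier results known, these shares and those below describe the list and do not test it. At 1.5-fold, 2 members were lower (Cnn3 and Aif1) against 6.48% of all genes, and 1 was higher (Abi3) against 5.38%. Aif1 fell short of 1.5-fold under 2 of the 7 other settings: quantile normalization gave it -0.56, and scaling on spike-in RNAs -0.46. The members' median was -0.06 and the median of all genes -0.02, and 38 of the 45 members (84.4%) lay within 0.25 of 0 on the log2 scale, compared with 61.5% of all genes.

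**Figure D1:**
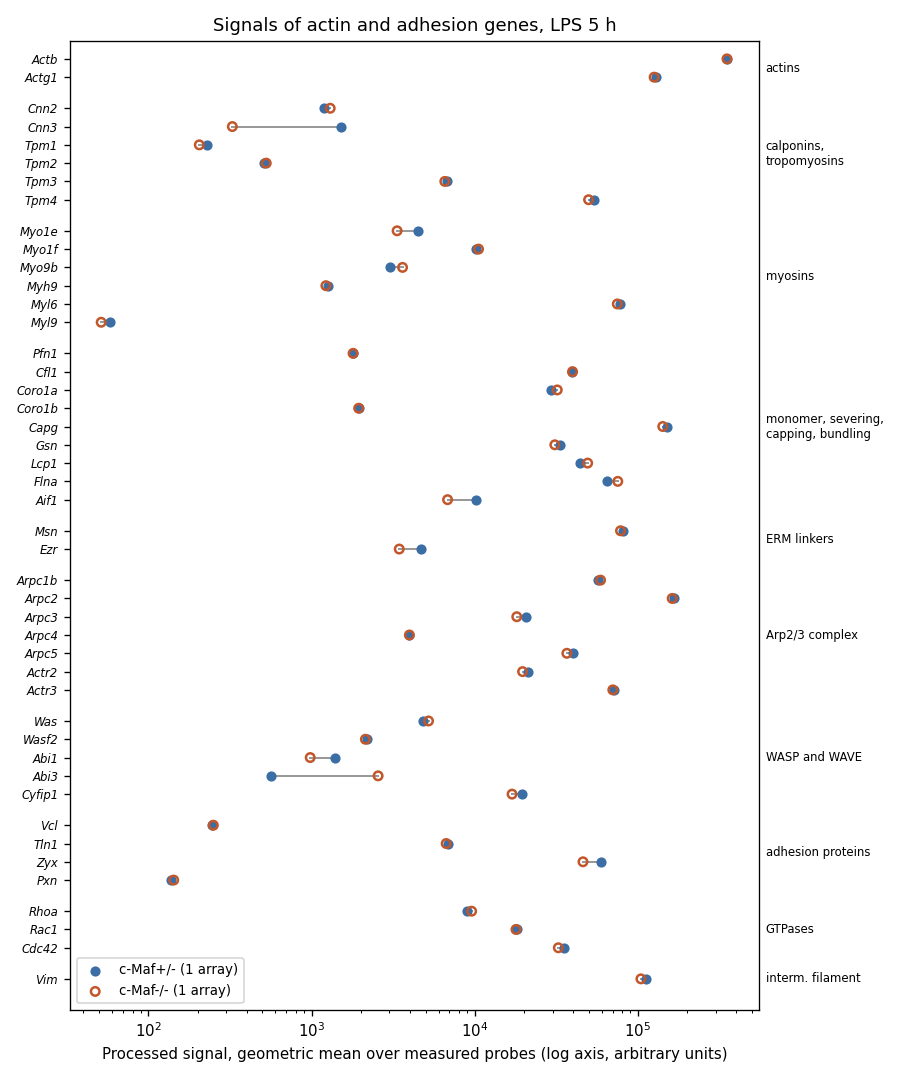
Processed signal of each of the 45 genes (log axis, arbitrary units; geometric mean over measured probes) in c-Maf+/- (filled) and c-Maf-/- (open) macrophages, 1 array each, grouped by role. Circles overlap for most genes, and Cnn3 (1520 against 327) and Abi3 (561 against 2557) have the longest lines.

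The probes behind these values are shown first, since the widest differences rest on 1 to 5 of them. Cnn3 was read by 2 probes on chromosome 3 of mouse build mm9, at 121161024 to 121161083 and 121160748 to 121160807 on the plus strand. The first 30 bases of each 60-base probe, as deposited, are:
Cnn3 probe A_55_P2040863: gctctgtttccttcaactgtatttattgct
Cnn3 probe A_55_P2130090: tgatttgctaaatgtggtctttgccaacta
The only Abi3 probe lies on chromosome 11 at 95693897 to 95693956 on the minus strand and opens with:
Abi3 probe A_51_P185906: ttccacagtcaaagctggactaaggacctg
Exon and UTR positions are not stated, since no mm9 gene models were used.

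Tpm1, which encodes the alpha-tropomyosin chain in many spliced forms, had 5 measured probes that did not go 1 way. The probes named after NM_001164249, NM_001164251 and NM_001164255 lie apart on chromosome 9, minus strand, and start with:
Tpm1 probe A_55_P2032192: gaaaaccttagtatgcaccagatgctggat
Tpm1 probe A_55_P2078680: ggaagaacagttaagaataatggatcagac
Tpm1 probe A_55_P2187053: gagggctgcctgcctggcccgtgtttccct
The remaining 2 probes, both named after NM_001164248, cover 66875796 to 66875855 and 66875782 to 66875841 and share 46 of their 60 bases. They are shown by the first 30 bases of one and the last 30 of the other, with the 14 bases that only that probe has in capitals:
Tpm1 probe A_55_P2187038: CCTTAGGGCCAGGCacagactgctttctat
Tpm1 probe A_55_P2187043: tcgcccagtgtaaaatAAACACTGTACGCT

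Calponin 3 fell outside the range of every other member on the lower side. Its first probe read 1007 in c-Maf+/- and 173 in c-Maf-/-, a log2 difference of -2.57 or 5.92-fold. Its second probe read 2296 and 617, a difference of -1.92 or 3.79-fold. Both probes were well above background on both arrays and both were lower in c-Maf-/-, which gave Cnn3 a mean of -2.24 (SD 0.45 over 2 probes), 4.74-fold lower. It was the 11th lowest of the 12344 genes. Another probe that carries the name Cnn3, from a cDNA on the other strand at 121127170 to 121127229, was not well above background on either array (6.71 and 5.50). Calponins bind along actin filaments and restrain myosin, and calponin 3 is the non-muscle form also found outside smooth muscle. Its close relative Cnn2, the calponin known in macrophages, read 1185 and 1301 as the mean over 2 probes, a difference of 0.11 with probes at 0.10 and 0.12. Thus the pair of calponin genes differed from each other on the same arrays.

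Stromal and smooth muscle cells are rich in calponins and tropomyosins, and the markers of those cells are given beside Cnn3 and Tpm1. Of 14 stromal and smooth muscle markers 6 were well above background on both arrays. Their signals summed to 2166 for c-Maf+/- and 1881 for c-Maf-/-, of which Tagln made up 1025 and 968 and Acta2 393 and 375. Such a sum, here and for the other cell types below, follows its brightest probes. It is not an amount of cells, since signals cannot be compared between genes. Of the 6, 5 were below 0: the matrix genes Dcn (-0.95), Col1a1 (-0.88) and Col1a2 (-0.32) and the smooth muscle genes Tagln (-0.11) and Acta2 (-0.09). Pdgfrb, a receptor of pericytes and fibroblasts, was above 0 (0.27). The other 8, among them Cnn1, Des, Myh11 and Postn, were not above background on both arrays. Of the 5 markers of platelets and their precursors, all measured, Ppbp (0.79) and Gp9 (0.91) were the highest and Pf4 (-0.07) the only one below 0. The summed signals were 58819 and 57510, of which Pf4 alone made up 58067 and 56215. The part of these cells in the values of Cnn3, Tpm1 and Myl9 was not tested, and in such bulk RNA fewer cells of a type and less RNA per cell cannot be told apart.

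The tropomyosins coil along filaments and decide which myosins and severing proteins can reach them. Tpm3, which encodes a cytoskeletal tropomyosin, was at -0.07 with probes at -0.01 and -0.14, and Tpm4 at -0.14 (signals of 53935 and 49841). Tpm2, the beta-tropomyosin gene, read 511 and 527, a difference of 0.02 from its 1 measured probe. These 3 genes were level between the arrays. Tpm1 had a mean of -0.18, but its probes ran from -1.36 to 1.89 (SD 1.25 over 5 probes), the widest range between probes of any of the 3443 genes with at least 2.

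The Tpm1 probes split as follows. The NM_001164249 probe read 835 and 581 (-0.55), the NM_001164251 probe 318 and 183 (-0.83), and the NM_001164255 probe 473 and 472 (-0.03). Both of the first pair were lower in c-Maf-/-, the last was level. The overlapping probes were dim and opposed. A_55_P2187038 read 119 and 47.3, a difference of -1.36 with a scanner error of 0.28, and A_55_P2187043 read 40.6 and 153, a difference of 1.89 with a scanner error of 0.31. Their gap of 3.25 was the widest among the 181 pairs of same-gene probes on these arrays that share at least 40 bases. In such pairs the median gap was 0.06, rising to 0.30 in the 19 pairs with a signal under 100 on some spot. Without these 2 probes the mean of Tpm1 was -0.47, and its brightest probe alone gave -0.55, so the value of -0.18 depends on them. Which transcript forms of Tpm1 differ cannot be settled from 1 spot per probe.

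**Figure D2:**
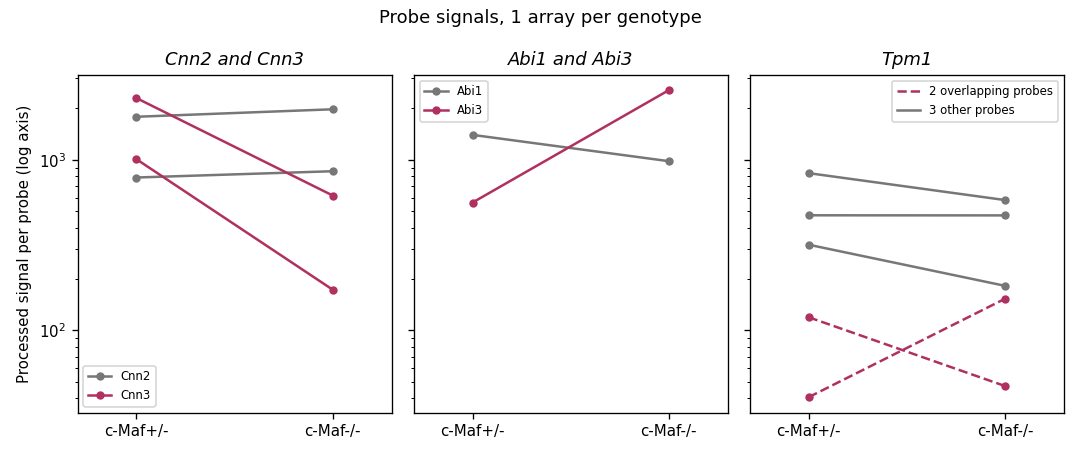
Processed signal of each measured probe (log axis, arbitrary units) of Cnn2 and Cnn3, of Abi1 and Abi3, and of Tpm1, joined between the c-Maf+/- and the c-Maf-/- array. Both Cnn3 probes fall while both Cnn2 probes stay level, the Abi3 probe rises while the Abi1 probe falls, and the 2 overlapping Tpm1 probes (dashed) cross.

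Among the myosins, the motors that move along or pull on filaments, Myo1e and Myo9b lay farthest from 0. Myo1e, a single-headed myosin that joins membrane to actin in podosomes, read 4458 in c-Maf+/- and 3343 in c-Maf-/- (-0.44). Myo9b, an unconventional myosin, read 3017 and 3610 (0.23), with probes at 0.23 and 0.24. The former was lower and the latter slightly higher. Their scanner errors of 0.20 and 0.14 differ because Myo1e had 1 probe and Myo9b had 2. Myo1f, the class I myosin of neutrophils and macrophages, was at 0.02, and Myl6, the essential light chain of non-muscle myosin, at -0.08. Myh9, the heavy chain of non-muscle myosin IIA, was at -0.07 over 2 probes at 0.13 and -0.28. The lower of these was dim (56.8 and 47.7) and named by an Ensembl transcript, and the bright one, named by a RefSeq transcript, read 28100 and 31402. Myl9, a regulatory light chain typical of smooth muscle and platelets, was dim at 58.1 and 51.4 (-0.20, with a scanner error of 0.29).

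The proteins that hold monomers and sever, cap or bundle filaments were level apart from Aif1. Aif1 encodes the calcium-binding bundling protein of macrophages often called Iba1, and its probe read 10208 in c-Maf+/- but 6814 in c-Maf-/-, a fall of 1.52-fold (-0.61). The next, Flna, which encodes the crosslinker filamin A, read 65029 and 75249 (0.18). Lcp1, the leukocyte bundling protein L-plastin, was at 0.13 with probes at 0.12 and 0.14, and Coro1a, the coronin of leukocytes, at 0.10. These 3 were slightly higher in c-Maf-/-. Coro1b, its widely expressed relative, was at -0.03, as were profilin (Pfn1, -0.02), which loads monomers, and cofilin (Cfl1, -0.02), which severs filaments. Of the gelsolin family, Gsn was at -0.12 and the macrophage capping protein gene Capg at -0.11. With scaling on spike-in RNAs they were at 0.02 and 0.04, so their direction depends on the scaling. The ERM proteins, which fasten filaments to the membrane, parted. Ezr (ezrin) read 4714 and 3445 (-0.48), whereas Msn (moesin), the main ERM protein of leukocytes, read 80841 and 78202 (-0.07).

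Actin itself was flat. Actb read 353747 in c-Maf+/- and 351320 in c-Maf-/- (-0.04), with no spot saturated on either array. The 5 probes of Actg1, cytoplasmic gamma-actin, lay between -0.10 and -0.03, with an SD of 0.03. Actin genes are nearly identical in their coding parts and have processed copies in the genome, so a probe may read relatives. Vim, the intermediate filament vimentin of macrophages, read 112440 and 104303 (-0.13).

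All 7 genes of the Arp2/3 complex lay between -0.22 and 0.02, with a median of -0.06 and an SD of 0.09 between genes. The SD was 0.41 over all genes measured. Among genes with a signal of at least 1000 on both arrays, as all 7 had, it was 0.31. Those genes had a median c-Maf+/- signal of 3990, against 39906 for the 7, so brightness was not matched. Arpc3, a small peripheral subunit, was lowest at -0.22, with 3 probes between -0.25 and -0.19. It read 20690 in c-Maf+/- and 18093 in c-Maf-/- as a mean over its probes. Arpc5 (-0.15) and Actr2 (-0.14), the actin-related protein 2 gene, came next. Arpc2 (-0.06), Actr3 (-0.04), Arpc4 (-0.01) and Arpc1b (0.02), the p41 subunit form of blood cells, were within the usual spread between probes.

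The proteins that switch Arp2/3 on held the one large rise. Abi3, a member of the Abi adaptor family that sits in the WAVE complex and is known in microglia and macrophages, read 561 in c-Maf+/- but 2557 in c-Maf-/-, a rise of 4.47-fold (2.16, with a scanner error of 0.20). It was the 9th highest of the 12344 genes, from 1 probe. Its relative Abi1 read 1398 and 981, 1.45-fold lower (-0.54), so the Abi genes went opposite ways. The other Abi gene, Abi2, was at 0.55 over 2 dim probes at 0.39 and 0.71. Cyfip1, the WAVE subunit that receives the Rac1 signal, read 19600 and 16928 (-0.24). Wasf2, the WAVE2 gene, was at -0.05 over 3 probes, and Was, which encodes the Wiskott-Aldrich protein of blood cells, at 0.10. Other WAVE complex genes outside the 45 were Nckap1l, the blood cell form of its subunit, at -0.34, Nckap1 at -0.55, Cyfip2 at 0.20, Wasf1 at 0.13 and Brk1 at -0.01. The Abi genes and the dim Nckap1 (146 and 101) lay farthest from 0 among those measured, and Wasf3 was not well above background on both arrays.

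The adhesion proteins were level except for zyxin. Zyx, which encodes a LIM protein recruited to contacts under tension, read 59395 in c-Maf+/- but 46057 in c-Maf-/-, a fall of 1.31-fold (-0.39). Tln1, the talin gene that activates integrins, was at -0.05 with probes at -0.03 and -0.08. Vcl (vinculin) was at 0.00 with probes at -0.02 and 0.02, and Pxn (paxillin), dim at 138 and 143, was at 0.02. Among the GTPases that steer these structures, Rac1 (-0.05) and Cdc42 (-0.14) each had probes close together, at -0.05 and -0.04 for Rac1 and at -0.15 and -0.13 for Cdc42. Rhoa, at 0.08, had probes at 0.21 and -0.06.

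Set side by side, the 3 classes had like medians: -0.07 for 23 actin binders, -0.06 for 12 Arp2/3 and WAVE genes and -0.03 for 4 adhesion proteins. Among actin binders 19 of 23 lay within 0.25, the exceptions being Cnn3, Aif1, Ezr and Myo1e, all lower. Among Arp2/3 and WAVE genes 10 of 12 did, the exceptions being Abi3 and Abi1, and among adhesion proteins 3 of 4 did, the exception being Zyx. These counts depend on the scaling. With spike-in scaling the actin binders Myo9b (0.38), Flna (0.33), Lcp1 (0.28) and Cnn2 (0.26) also lay beyond 0.25, on the higher side. Zyx was then within it, at -0.246. With 1 array per genotype the classes were not tested against each other.

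**Figure D3:**
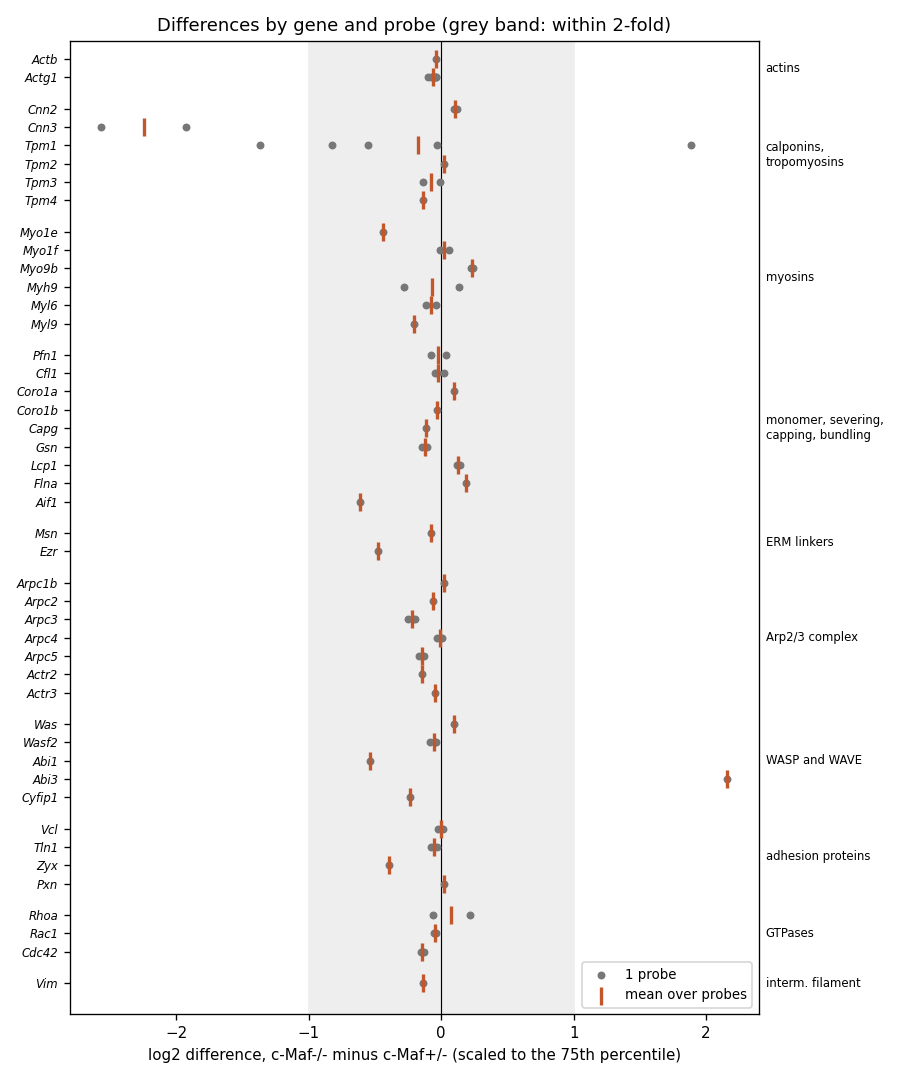
log2 difference (c-Maf-/- minus c-Maf+/-) of the 45 genes, with a grey point for each measured probe and an orange bar for the mean over probes. Only Cnn3 (-2.24) and Abi3 (2.16) have means outside the grey 2-fold band, and the Tpm1 probes span it from -1.36 to 1.89.

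Because brighter genes vary less between arrays, members were also read beside bright genes alone. Of the 4853 genes with a signal of at least 1000 on both arrays, 0.907% were at least 2-fold lower and 0.433% at least 2-fold higher, and 4.97% and 2.16% passed 1.5-fold. The 37 members that bright had none past 2-fold, and Aif1 alone was past 1.5-fold. Of these 37, 33 lay within 0.25 of 0 (89.2%), compared with 72.2% of the bright genes, and their SD was 0.18 against 0.31. Brightness was not matched within this limit, as the median c-Maf+/- signal was 21260 for the 37 and 3990 for the bright genes. At least 2 measured probes stood behind 22 of the 45 members, against 3443 of the 12344 genes. The part of brightness and probe number in the narrower spread was not tested. Cnn3, Abi3 and Tpm1 were among the 8 members with a signal under 1000 on an array. Cnn3 (1520 in c-Maf+/-, 327 in c-Maf-/-) and Abi3 (561 and 2557) were under that limit on 1 array only. A limit set on both arrays leaves out such genes because of their difference. The absence of 2-fold members among the 37, like the low shares of the bright genes, is therefore partly built in.

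**Figure D4:**
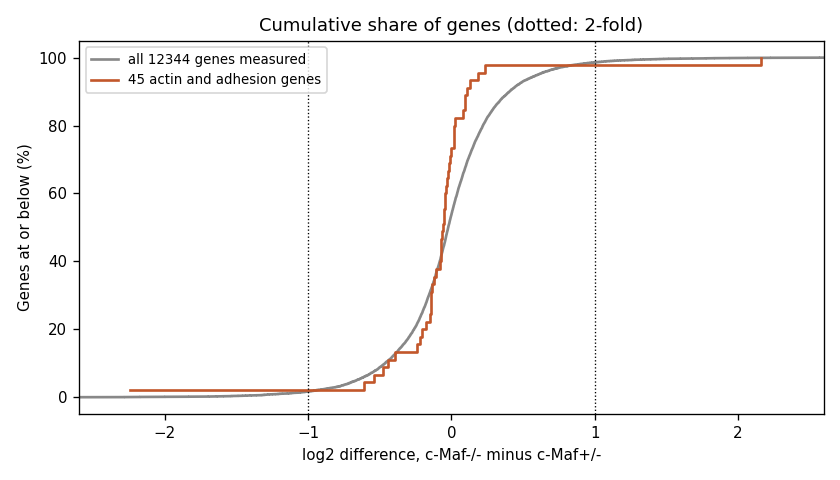
Cumulative share of genes (%) by log2 difference for the 45 genes (orange) and all 12344 genes measured (grey); dotted lines mark 2-fold. The orange line is steeper around 0, where 84.4% of its genes lie within 0.25, and has 1 gene beyond each dotted line.

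Other genes of the same machinery, 126 in 5 lists by role, were read in the same way, and 111 were measured. Of these, 1 was at least 2-fold lower and 1 at least 2-fold higher, near the array's own shares of 1.73% and 1.42%. At 1.5-fold 6 were lower and 3 higher, against shares of 6.48% and 5.38%. The 5 lists, too, were chosen with earlier results of these data known. Fscn1, the filopodial bundling protein fascin, which is also a dendritic cell marker, was lower by a log2 difference of -1.50 (312 and 112). The adaptor gene Bcar1, known as p130Cas, was higher by 1.69 but dim on the lower array (46.4 and 152). Both rested on 1 probe. Of the 6 dendritic cell markers, Fscn1 included, 5 were below 0, with Itgax at -1.09, Batf3 at -0.89, Zbtb46 at -0.60 and Ccr7 at -0.05, while the dim Flt3 was at 0.47. Their summed signal was 3080 against 2577, of which Ccr7 made up 2096 and 2058. Their part in the Fscn1 value was not tested.

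Within 2-fold, the nucleating formin genes Fmnl3 (0.98) and Fhod1 (0.73) were the farthest from 0 in their list, on the higher side. The branch-stabilising cortactin gene Cttn (-0.98) and the filopodial motor gene Myo10 (-0.95) were the next lowest after Fscn1. Each of these 4 had a signal under 1000 on both arrays. The farthest 2 in the remaining lists were completed by the light chain gene Myl4 (-0.56), the LIM protein gene Pdlim5 (-0.58 over 3 probes), Mrtfa (0.50 over 2 probes) and Mrtfb (0.48). List medians ran from -0.11 for myosins and their kinases to 0.00 for nucleation genes, with -0.10 for filament binding, -0.09 for adhesion plaque genes and -0.06 for ERM, intermediate filament and SRF genes.

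**Figure D5:**
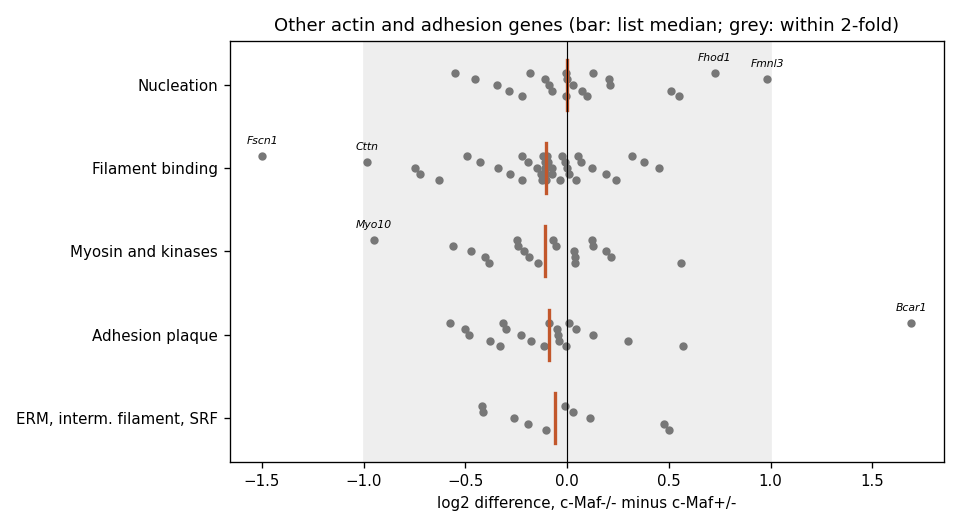
log2 difference (c-Maf-/- minus c-Maf+/-) of the 111 measured genes in 5 lists of other actin and adhesion genes, 1 point per gene, with the list median as an orange bar. The points outside the grey 2-fold band are Fscn1 on the lower side and Bcar1 on the higher side.

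Mrtfa and Mrtfb encode the coactivators that sense free actin and work with the serum response factor, SRF, which is known to drive many actin genes through a motif named the CArG box. The promoters of 39 members were in the RefSeq table (build GRCm38.p6, 250 bases before to 50 after each start), 47 promoters in all; those of 6 members, Abi3 and Actb among them, were not matched. Searched on both strands, which read alike for this palindromic motif, the CArG box was in 7 of the 47 (14.9%), against 1.63% of the 32851 promoters in the table. The other 40 promoters did not hold it. The 7 matches are shown so that the boxes can be compared, each in a 30-base window with the box in capitals:
Actg1, chr11:120348566-120348595, minus strand: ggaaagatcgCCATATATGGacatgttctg
Arpc4, chr6:113377863-113377892, plus strand: CCTAATTTGGtgcccaacctgaggtcgggc
Cnn2, chr10:79988534-79988563, plus strand: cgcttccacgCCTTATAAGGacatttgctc
Myl6, chr10:128493040-128493069, minus strand: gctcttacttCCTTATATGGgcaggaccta
Myl9, chr2:156775293-156775322, plus strand: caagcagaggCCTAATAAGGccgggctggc
Myo1e, chr9:70207308-70207337, plus strand: gctgaattctCCATTTATGGacagattgcc
Vcl, chr14:20929161-20929190, plus strand: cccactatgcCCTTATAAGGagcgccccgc
These 7 genes had a median log2 difference of -0.06, the 32 other matched members one of -0.07, and Srf, named after its value was seen, was at 0.03. Their own differences ran from -0.44 for Myo1e to 0.11 for Cnn2.

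c-Maf itself binds a palindrome whose arms read TGCTGA. That arm, on either strand, was in 6 of the 47 member promoters (12.8%) and in 19.5% of all promoters in the table. The 6 genes were Cdc42, Coro1a, Myh9, Myo1e, Tpm2 and Tpm4, with a median difference of -0.11 against -0.06 for the other matched members. Myo1e held both motifs, without overlap. The promoter of Cnn3 held neither motif in these 300 bases. A match is a string of letters and not a measured binding site.

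A few facts of the arrays bear on all of this. Maf's probes read 15101 and 541 on the array labelled c-Maf+/-. On the other they read 12.6 and 5.96, below the background limit, as its label says. All 8 macrophage markers were well above background on both arrays, and they went both ways, 4 of 8 below 0. Fcgr1 (-0.58), Cd68 (-0.40), Adgre1 (-0.40) and Csf1r (-0.03) were below, and Lyz2 (0.58), Cd14 (0.46), Itgam (0.12) and Spi1 (0.05) above. Fcgr1, Lyz2, Cd14, Cd68 and Adgre1 lay at least as far from 0 as Zyx (-0.39), and Fcgr1 and Lyz2 farther than Ezr (-0.48). None of the 8 lay as far from 0 as Aif1 (-0.61). All 8 neutrophil markers were below 0, from Ngp (-1.45) to Elane (-0.03), with a median of -0.82. Their summed signal was 99598 against 55066, of which S100a9 made up 68498 and 34671 and S100a8 24689 and 16299. The part of neutrophils in the members' values was not tested. Xist, expressed from the inactive X chromosome of female cells, was well above background in c-Maf+/- (263) and not in c-Maf-/- (5.43), while the Y-linked genes Ddx3y (743 and 1068) and Eif2s3y (2465 and 3906) were well above background on both. The part of sex in the members' values was not tested. The 3 X-linked members, Flna (0.18), Msn (-0.07) and Was (0.10), lay near 0. The mean log2 difference of 8 spike-in RNAs was -0.15 (SD 0.05), and scaling on them adds the same amount to every gene. Members below 0 then number 11 of 45 in place of 33, by construction. The 29 of 45 below the median of all genes stay the same, also by construction, since that median moves with them. Quantile normalization gives 23 below 0 and 26 below that median. Directions within about 0.15 of 0 therefore depend on the scaling, as do counts of genes within 0.25 of 0. Over all 8 settings Cnn3 stayed between -2.24 and -1.60 and Abi3 between 2.06 and 2.31.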

How the data were processed

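The intensities were deposited by the authors as output of Agilent Feature Extraction 10.7.3.1 for array design 028005 (build mm9), per the file headers: background-subtracted with spatial detrending in each array and without normalization between arrays; low spots hold a surrogate. Other deposited columns used were the flags for background, outliers and saturation (values of 0 and 1), the mean and background intensities and the spot error. Per the labels, Cy3 labelling started from 50 ng of total RNA.

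Here, log2 of each processed signal minus the array's 75th percentile over 59305 non-control spots was taken (291 and 296). Outlier spots (136 and 149) were left out, and spots of a probe were averaged. Names were GeneName entries, updated through RefSeq symbols and synonyms. 45.3% and 44.9% of spots were well above background. Work was done in Python 3.11.15 and R 4.3.3 with limma 3.58.1, and the averaging was tested on simulated data. The 7 alternatives were normexp (offset 50), no background subtraction, quantile and spike-in scaling, no dim filter, the brightest probe, and matching by RefSeq accession. The omission of the overlapping Tpm1 probes was chosen after seeing the data. A further list of genes is not reported here. Members and lists were chosen with earlier results of these data known. Named genes are all members and, of the wider lists, those past 2-fold and the 2 farthest from 0 in each. Nckap1l, Brk1, Nckap1, Cyfip2, Wasf1, Wasf3, Abi2 and Srf were named with their values already known. The number of arrays, 1 per genotype, limits the precision.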

Additional observations from a re-analysis of the deposited data

How the results depend on the processing

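No paired analysis was possible because each genotype had 1 array, and for the same reason no array could be left out. No member's difference past 1.5-fold changed sign under the 7 alternatives. Compared with the usual SD of 0.09 between probes, 44 of 45 members moved by less with matching by RefSeq accession and with no filter on dim probes, 43 without background subtraction, 42 with normexp, and 41 each with the brightest probe and quantile normalization. Spike-in scaling moved all 45, and all genes, by 0.15. With it the median was 0.089 for all members, 0.073 for actin binders, 0.088 for Arp2/3 and WAVE genes, 0.12 for adhesion proteins and 0.12 for all genes. For the wider lists it was 0.14 for nucleation, 0.042 for filament binding, 0.040 for myosins and kinases, 0.057 for adhesion plaque genes and 0.088 for ERM, intermediate filament and SRF genes. Aif1 left the 1.5-fold group with quantile (-0.56) and spike-in scaling (-0.46), so that 1 member was lower there.

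All genes at least 2-fold lower and higher numbered 213 and 175, but normexp gave 108 and 68, the unsubtracted signal 123 and 81. They were 138 and 268 with spike-in scaling, and 863 and 878 with no filter on dim probes. The higher share of these calls was 45.1%, and 66.0% with spike-in scaling. At 1.5-fold the counts were 800 and 664, but normexp gave 473 and 329. They were 479 and 1091 with spike-in scaling, 2048 and 2044 with no dim filter, and 386 higher without background subtraction. In the wider lists, 2-fold lower genes were 4 with no dim filter against 1. Higher ones were 0 with normexp and 2 with spike-in scaling against 1, and at 1.5-fold 10 with spike-in scaling and 6 with the brightest probe against 3. Signals under 100 on an array were behind Myl9 and 1 probe each of Myh9 and Vcl, and behind 2 Tpm1 probes. The mean of Myh9 was -0.07 with its dim probe and 0.13 with matching by RefSeq accession, which leaves that probe out.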
